A study of Rattus norvegicus with 17 samples.

Results

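The 10 genes described here were Atf4 and Ddit3, which encode transcription factors of the stress response to amino acid shortage, and 8 genes of amino acid synthesis and one-carbon metabolism: Asns, Phgdh, Psat1, Psph, Shmt2, Mthfd2, Pycr1 and Aldh18a1. They were 10 of 14506 genes whose probe sets carried a single symbol, and each gene is represented by its brightest probe set. The genes were chosen by their measured differences between the control, 20 mg/kg and 30 mg/kg groups, so those differences are given as a description, and the counts of these genes past the threshold of the fit across all genes are not read as a test. Transcripts were measured on 17 Affymetrix arrays of tissue labelled pituitary adenoma, each of 1 sample from rats aged 8 months. All of the samples, controls included, carried a mutation of Cdknb1 as the labels spell it, the gene of the cell cycle inhibitor p27Kip1, on a mixed strain background named Sprague-Dawley white eye/Wistar-Kyoto. The sample labels give the mutation as homozygous and the series design gives it as heterozygous. The 7 controls (5 female, 2 male) had been given PEG at 20 mg/kg. NVP-BEZ235, which blocks the kinases PI3K and mTOR, had been given at 20 mg/kg in 6 samples (4 female, 2 male) and at 30 mg/kg in 4 (3 female, 1 male). No group without the mutation was analysed here, and how long treatment lasted is not given in the sources used here.

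ATF4 is a transcription factor whose synthesis rises when the initiation factor eIF2 is phosphorylated, as happens when amino acids are scarce, and it is also known to depend on mTOR signalling. With partners of the C/EBP family it binds composite elements near genes that make, import and load amino acids. DDIT3, also called CHOP, is such a partner and its gene is itself a known ATF4 target. PHGDH, PSAT1 and PSPH make serine from an intermediate of glycolysis, SHMT2 and MTHFD2 pass its carbon into mitochondrial folate metabolism, and ALDH18A1 and PYCR1 make proline from glutamate.

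The markers went against the pituitary label. The chromaffin cell enzymes Th and Dbh averaged 12.29 ± 0.32 and 12.32 ± 0.25 on the log2 scale (SD, n = 17). The adrenal cortex genes Cyp11a1 and Star averaged 12.02 ± 0.26 and 12.11 ± 0.19. Of 7 pituitary hormone genes, Gh1, Pomc, Fshb, Cga and Tshb averaged 3.86 to 4.64, below the array medians of 4.95 to 5.11, Lhb averaged 4.99 ± 0.18, within them, and Prl 5.61 ± 1.22, above them. Pheochromocytoma, a tumour of chromaffin cells, is the tumour in the title of the series. Several cell type markers also differed between the groups. At 30 mg/kg the mean of 7 lymphocyte markers lay between 4.17 and 4.36 in the treated libraries, against 4.63 to 5.13 in controls, and that of 7 endothelial markers between 7.61 and 7.77, against 6.90 to 7.57. The mean of 8 chromaffin markers lay between 9.72 and 10.57 at 30 mg/kg, against 10.33 to 10.99 in controls, with Ddc and Hand2 lower by limma. The median difference of the 8 was -0.118 on the log2 scale. Over the 17 arrays Th, Dbh, Chga and Chgb had SDs of 0.11 to 0.32, and Ddc, Hand2, Slc18a1 and Slc18a2 of 0.72 to 1.09. Of 8 macrophage markers Aif1 and Csf1r were lower there, and of 8 fibroblast markers 1 was higher and 1 lower. In the 20 mg/kg libraries the chromaffin range was 10.42 to 11.28 and the lymphocyte range 4.41 to 4.56, the mean of 9 adrenal cortex markers lay between 9.82 and 10.48, against 10.16 to 11.12 in controls, with Mc2r lower, and of 8 fibroblast markers Col1a1 and Col3a1 were lower. Between the doses, 30 mg/kg had 3 chromaffin markers lower (Ddc, Hand2 and Slc18a1) and 2 cortex markers higher (Cyp21a1 and Mc2r) than 20 mg/kg. Higher too were 3 fibroblast markers (Col1a1, Pdgfra and Pdgfrb), although the median of the 8 was -0.025 on the log2 scale. Macrophage Aif1 and Cd163 and lymphocyte Cd4 were lower, and endothelial Cdh5 was higher. Over all genes 8.55% passed at 30 mg/kg, 1.18% at 20 mg/kg and 12.1% between the doses. In bulk tissue fewer cells of a type and less RNA per cell cannot be told apart, and the part of these markers in the results below was not tested.

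The title numbers also need to be kept in view. Controls are numbered 1 to 7, the 30 mg/kg libraries 1 to 4 and the 20 mg/kg libraries 5 to 10. Of the 10 genes, Ddit3 and Asns separated controls 5 to 7 from controls 1 to 4 without overlap, both higher in controls 5 to 7, beside 21.4% of all genes that did not overlap (10.9% higher in controls 5 to 7). Sex goes with the numbers among controls: controls 1 to 5 are female and controls 6 and 7 male. The labels do not say what the numbers stand for. Differences are therefore given against all controls and against the controls with numbers in the same range. Between the treated groups, dose and number range cannot be told apart.

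To show the promoter sequence beside the expression values, 3 genes were chosen: Pycr1, which was lower at both doses, Mthfd2, which was higher at 30 mg/kg, and Phgdh, which was lower at 30 mg/kg. Each sequence runs 5′ to 3′ on the strand of its gene, from 250 bases before to 50 bases after the annotated start, as RefSeq gives it on GRCr8. Capitals mark TGATGNAA, the core of the composite element to which ATF4 and C/EBP proteins bind, and CCAAT boxes, on either strand, so that a CCAAT box on the opposite strand reads ATTGG.
Pycr1 (chr10:106420763-106421062, minus strand): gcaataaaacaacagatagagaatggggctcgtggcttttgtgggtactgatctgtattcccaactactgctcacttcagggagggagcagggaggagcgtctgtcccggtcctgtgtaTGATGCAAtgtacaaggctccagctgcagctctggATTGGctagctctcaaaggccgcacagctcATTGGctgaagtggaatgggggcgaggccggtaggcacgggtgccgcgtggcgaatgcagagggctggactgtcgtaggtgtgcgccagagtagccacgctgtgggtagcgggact
Mthfd2 (chr4:117380301-117380600, minus strand): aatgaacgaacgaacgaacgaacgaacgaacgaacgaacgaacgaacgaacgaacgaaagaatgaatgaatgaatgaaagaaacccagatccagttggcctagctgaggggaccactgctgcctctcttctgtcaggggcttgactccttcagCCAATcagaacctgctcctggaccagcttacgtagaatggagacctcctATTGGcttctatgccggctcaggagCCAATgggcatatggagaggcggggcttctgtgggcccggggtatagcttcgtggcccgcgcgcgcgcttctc
Phgdh (chr2:188624740-188625039, minus strand): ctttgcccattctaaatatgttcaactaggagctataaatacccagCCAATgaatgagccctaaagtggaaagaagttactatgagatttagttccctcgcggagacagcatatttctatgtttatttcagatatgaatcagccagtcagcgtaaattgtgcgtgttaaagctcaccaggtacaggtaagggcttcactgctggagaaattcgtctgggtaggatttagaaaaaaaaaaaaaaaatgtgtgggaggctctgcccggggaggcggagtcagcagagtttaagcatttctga

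A promoter was given for 9 of the 10 genes. TGATGNAA was in 1 of these 9, that of Pycr1, where it begins 131 bases before the start, and in 3.98% of the 33469 promoters of the same length. CCAAT was in 5 of the 9, those of Ddit3, Phgdh, Psat1, Mthfd2 and Pycr1, and in 37.5% of all promoters. The 2 motifs did not overlap in the sequences shown. The match is of letters only, and no binding was measured.

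Atf4 transcripts (probe set 10897760) had higher mean levels at both doses than in controls, with overlap. The Atf4 level had a lowest, median and highest log2 value of 9.48, 10.17 and 10.40 in the 7 controls and of 10.39, 10.60 and 11.62 in the 6 libraries at 20 mg/kg. The 4 libraries at 30 mg/kg had 10.97, 10.09, 10.68 and 11.46. All 6 libraries at 20 mg/kg and 3 of 4 at 30 mg/kg lay above the control mean, although both treated ranges overlapped the control range. The highest values at each dose came from males, replicate 10 at 20 mg/kg and replicate 4 at 30 mg/kg. With sex as a term, the fitted difference from control was 0.62 ± 0.18 on the log2 scale at 20 mg/kg (SE, a 1.54-fold level) and 0.72 ± 0.20 at 30 mg/kg (1.64-fold). Against controls of the same number range the plain mean difference was 0.48 at 20 mg/kg, where the groups did not overlap, and 0.82 at 30 mg/kg.

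Ddit3 (probe set 10895861) differed between the number ranges among the controls, and its difference from control depended on which controls were used. Controls 1 to 4 lay between 7.32 and 7.43, while controls 5, 6 and 7 had 8.76, 8.27 and 8.39. The 6 libraries at 20 mg/kg had a lowest, median and highest value of 8.57, 8.997 and 9.56. Libraries 1 to 4 at 30 mg/kg had 8.76, 7.37, 7.27 and 8.23, so that replicates 2 and 3 were close to controls 1 to 4 and replicates 1 and 4 above all of them. The gap of 1.11 between the control means of the number ranges was larger in size than that of 98.7% of the 14506 genes. Fitted against all controls, Ddit3 was higher by 1.2 ± 0.26 at 20 mg/kg (SE, 2.30-fold) and by 0.09 ± 0.30 at 30 mg/kg. Against the controls of their own number range the mean differences were 0.59 at 20 mg/kg and 0.55 at 30 mg/kg, and both overlapped. The fitted difference of 30 mg/kg minus 20 mg/kg was -1.11 ± 0.31, and it was -0.12 ± 0.41 with the number range as a term.

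Asns (probe set 10860951), the gene of asparagine synthetase and a textbook ATF4 target, overlapped the control range at both doses. Its level ran from 6.55 over a median of 7.16 to 7.80 in controls and from 6.98 over 7.38 to 8.06 at 20 mg/kg. The 30 mg/kg libraries had 6.93, 6.85, 7.28 and 7.38, inside the control range. The fitted difference was 0.34 ± 0.14 at 20 mg/kg and -0.01 ± 0.16 at 30 mg/kg (SE). The 95% interval at 30 mg/kg was -0.34 to 0.32. Controls 5 to 7, which include both control males, averaged 7.53, against 6.85 in controls 1 to 4. Within the number ranges the plain mean difference, which leaves sex out, was -0.01 at 20 mg/kg and 0.26 at 30 mg/kg. Fitted with sex within those ranges it was 0.17 ± 0.16 at 20 mg/kg and 0.17 ± 0.19 at 30 mg/kg (SE), and with the number range as a term 30 mg/kg minus 20 mg/kg was -0.01 ± 0.25.

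**Figure D1:**
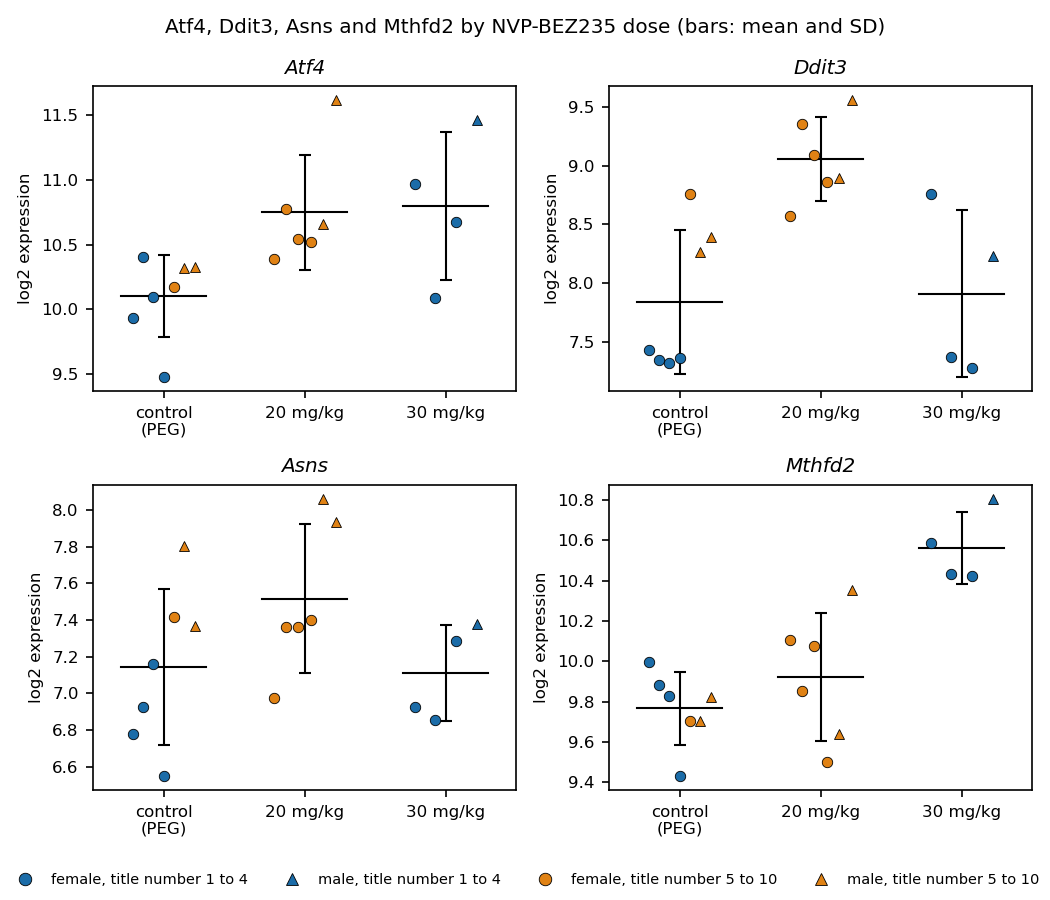
Log2 expression of Atf4, Ddit3, Asns and Mthfd2 in each library by dose (7 controls, 6 at 20 mg/kg, 4 at 30 mg/kg); colours give the title number range, shapes the sex, and horizontal and vertical bars the mean and SD. Controls 5 to 7 lie above controls 1 to 4 for Ddit3 and Asns, and all 4 Mthfd2 values at 30 mg/kg lie between 10.42 and 10.80, above every other library.

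Of the one-carbon genes, Mthfd2 was higher at 30 mg/kg, and the groups overlapped for Shmt2. Mthfd2 (probe set 10870316) encodes a mitochondrial methylenetetrahydrofolate dehydrogenase. At 30 mg/kg it had 10.58, 10.43, 10.42 and 10.80. Its lowest, median and highest values were 9.43, 9.82 and 9.997 in controls and 9.50, 9.96 and 10.35 at 20 mg/kg. The 30 mg/kg libraries therefore lay above every other library, and the 20 mg/kg range overlapped that of the controls. The fitted difference was 0.15 ± 0.13 at 20 mg/kg and 0.80 ± 0.15 at 30 mg/kg (SE, 1.74-fold), and 30 mg/kg minus 20 mg/kg gave 0.65 ± 0.15, which was 0.51 ± 0.25 with the number range as a term. A second, dimmer probe set of Mthfd2 gave 0.26 ± 0.15 and 0.89 ± 0.16 for the comparisons with control. Against controls 1 to 4 alone the mean difference at 30 mg/kg was 0.78. Shmt2 (probe set 10903061), the mitochondrial serine hydroxymethyltransferase gene, had means of 7.75 ± 0.48 in controls, 7.55 ± 0.27 at 20 mg/kg and 7.60 ± 0.38 at 30 mg/kg (SD), with 95% intervals of the fitted difference from control of -0.60 to 0.15 at 20 mg/kg and -0.56 to 0.29 at 30 mg/kg.

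The 3 genes of serine synthesis did not move as a unit. Phgdh (probe set 10825328), which encodes the enzyme of the first step, ranged from 5.71 to 6.02 in controls with a median of 5.80. It ranged from 5.10 to 5.91 at 20 mg/kg with a median of 5.45. At 30 mg/kg it had 5.36, 5.62, 5.35 and 5.34, all below the lowest control. The fitted differences were -0.35 ± 0.10 at 20 mg/kg and -0.44 ± 0.12 at 30 mg/kg (SE, 0.785-fold and 0.736-fold). Within the number ranges the mean differences were -0.32 and -0.47.

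Psph (probe set 10761394), the gene of the phosphatase that completes serine synthesis, was lower at 30 mg/kg alone. The 30 mg/kg libraries had 5.91, 6.22, 5.71 and 5.97. Controls had a lowest, median and highest value of 6.27, 6.66 and 6.86 and the 20 mg/kg libraries of 6.47, 6.70 and 7.08. All 4 libraries at 30 mg/kg lay below every other library. Against controls of the same number range the plain mean difference was 0.01 at 20 mg/kg and -0.58 at 30 mg/kg. The fitted differences from control were 0.12 ± 0.13 at 20 mg/kg and -0.66 ± 0.15 at 30 mg/kg (SE), and 30 mg/kg minus 20 mg/kg gave -0.78 ± 0.15, which was -0.49 ± 0.23 with the number range as a term. Psat1 (probe set 10729096), the aminotransferase gene between them, averaged 4.43 ± 0.24 in controls, 4.34 ± 0.24 at 20 mg/kg and 4.37 ± 0.35 at 30 mg/kg (SD). These means lie below the array medians, where differences are compressed, and its dimmer probe set, with a mean of 3.28, gave 0.02 ± 0.11 at 20 mg/kg and 0.26 ± 0.13 at 30 mg/kg (SE).

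Of the proline genes, Pycr1 (probe set 10749716), for pyrroline-5-carboxylate reductase, was lower at both doses by about the same amount. Controls had a lowest, median and highest value of 5.60, 5.95 and 6.61, and the 20 mg/kg libraries of 4.95, 5.33 and 5.65. The 30 mg/kg libraries had 5.60, 4.99, 5.53 and 5.04. All 10 treated libraries lay below the control mean of 6.04, and the overlap with the control range rested on control replicate 3, since the other controls were at 5.92 or above. The fitted differences were -0.73 ± 0.16 at 20 mg/kg and -0.75 ± 0.18 at 30 mg/kg (SE, 0.604-fold and 0.593-fold). Against controls of the same number range they were -0.73 and -0.75 in plain means. The difference of 30 mg/kg minus 20 mg/kg was -0.03, with a 95% interval of -0.42 to 0.37. The Pycr1 promoter, shown above, held a match of letters to TGATGNAA, and its part in these values was not tested.

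Aldh18a1 (probe set 10730098), for pyrroline-5-carboxylate synthase, the enzyme before PYCR1, had means of 5.70 ± 0.29 in controls, 5.69 ± 0.27 at 20 mg/kg and 5.48 ± 0.12 at 30 mg/kg (SD). Its fitted differences were -0.02 ± 0.11 and -0.20 ± 0.13 (SE). The 4 libraries at 30 mg/kg lay below the control mean but inside the control range.

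**Figure D2:**
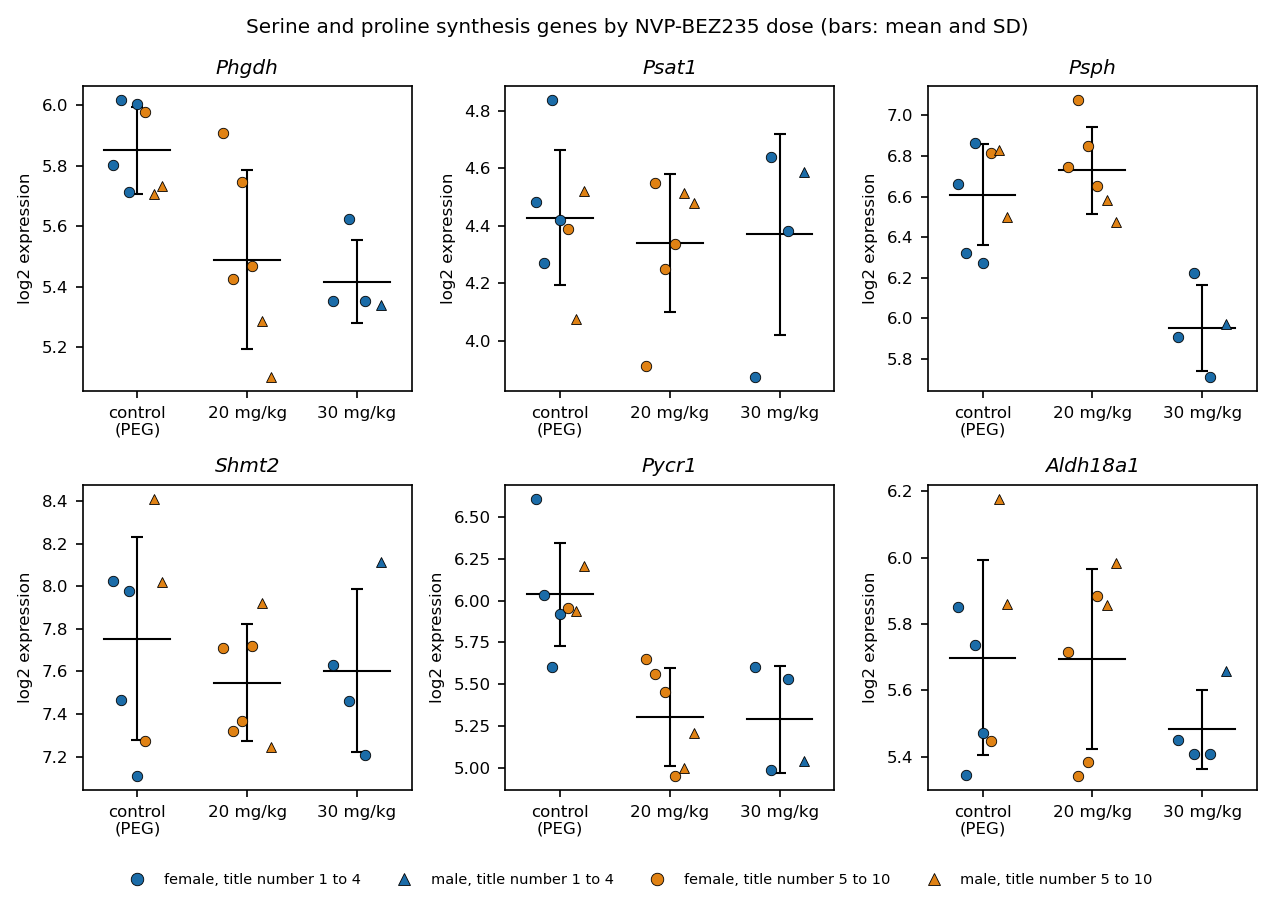
Log2 expression of Phgdh, Psat1, Psph, Shmt2, Pycr1 and Aldh18a1 in each library by dose, with colours for the title number range, shapes for sex, and bars for the mean and SD. All 4 libraries at 30 mg/kg lie below every control for Phgdh and Psph, and Pycr1 is centred near 5.30 at both doses, against 6.04 in controls.

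Set side by side, the fitted difference from control was positive at both doses for Atf4 and negative at both for Phgdh and Pycr1, and at 30 mg/kg it was positive for Mthfd2 and negative for Psph. Atf4 and Phgdh did not pass the threshold at 20 mg/kg. In the limma fit across all genes, at an adjusted p under 0.05, 2 of the 10 genes (Atf4 and Mthfd2) were higher and 3 (Phgdh, Psph and Pycr1) lower at 30 mg/kg, where 8.55% of the 14506 genes passed (3.66% higher, 4.89% lower). Ddit3 was higher and Pycr1 lower at 20 mg/kg, where 1.18% passed (0.655% higher, 0.524% lower). For 30 mg/kg against 20 mg/kg Mthfd2 was higher and Ddit3 and Psph lower, where 12.1% passed (3.92% higher, 8.16% lower). The groups did not overlap at 30 mg/kg against control for Mthfd2, Phgdh and Psph, beside 3.76% of all genes (1.75% above, 2.01% below). They overlapped for all 10 genes at 20 mg/kg against control, where 1.36% of all genes did not overlap. Between the doses they did not overlap for Mthfd2 and Psph, beside 12.6% of all genes (5.16% above, 7.42% below). Nothing is read from these counts, because the genes were chosen with these contrasts known. The median difference of the 10 genes was 0.05 at 20 mg/kg and -0.10 at 30 mg/kg, beside -0.01 and 0.01 over all genes. The comparisons with control share the same controls.

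A change of sign was unlikely for the genes counted above, which were chosen by these differences and passed the threshold. Their fitted differences kept their sign when any 1 of the 17 libraries was left out. Against control at 30 mg/kg they ran from 0.60 to 0.91 for Atf4, 0.73 to 0.84 for Mthfd2, -0.50 to -0.40 for Phgdh, -0.75 to -0.57 for Psph and -0.85 to -0.64 for Pycr1. At 20 mg/kg they ran from 1.10 to 1.38 for Ddit3 and -0.81 to -0.64 for Pycr1. The counts of genes past the threshold, which support nothing here, were less steady. At 30 mg/kg Pycr1 no longer passed without replicate 2 or 4, Phgdh without control replicate 7 or replicate 1, 3 or 4, and Atf4 without control replicate 4, 6 or 7 or replicate 1, 3 or 4. At 20 mg/kg Ddit3 no longer passed without any of control replicates 1 to 4, 6 and 7 or replicates 6, 7, 8 and 10, and Pycr1 without any of control replicates 1, 2, 6 and 7 or replicates 6 to 10. Between the doses Mthfd2 no longer passed without replicate 4 at 30 mg/kg, and Ddit3 without replicates 2, 3 or 4 at 30 mg/kg or 6, 7 or 8 at 20 mg/kg. In females alone, and likewise with the number range as a term, Mthfd2 was the 1 of the 5 genes that still passed at 30 mg/kg, and 0 of 2 passed at 20 mg/kg. Within numbers 1 to 4 at 30 mg/kg 0 of the 5 passed, and within numbers 5 to 10 at 20 mg/kg 0 of the 2. Between the doses 1 of 3 (Psph) passed in females and 0 of 3 with the number range as a term. Atf4 and Phgdh at 30 mg/kg also no longer passed without the sex term or with array weights, nor Phgdh with trended variance, and at 20 mg/kg Ddit3 and Pycr1 no longer passed without the sex term or after quantile normalization.

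**Figure D3:**
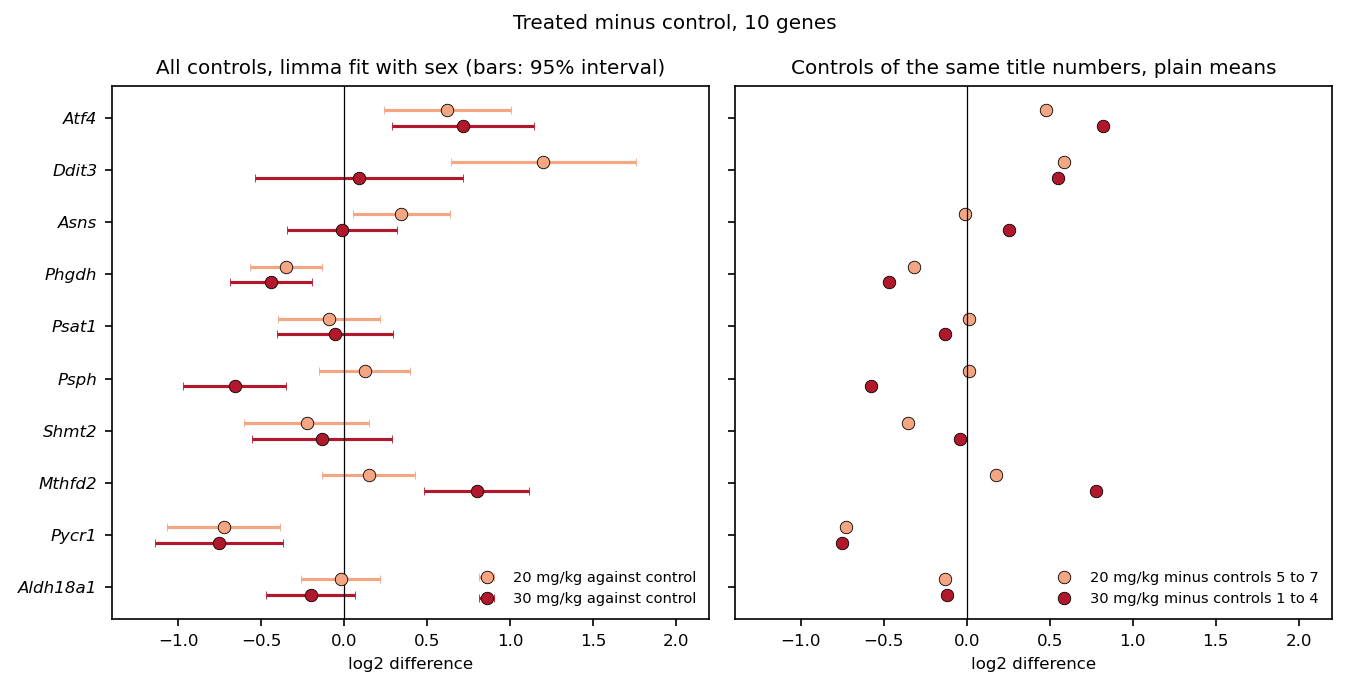
Log2 differences of the 10 genes from control at 20 and 30 mg/kg: on the left the limma estimates against all 7 controls with 95% intervals, on the right the plain mean differences against the controls of the same title numbers. For Ddit3 the values at 20 and 30 mg/kg are 1.2 and 0.09 on the left and 0.59 and 0.55 on the right, and for Pycr1 they are -0.73 and -0.75 in both panels.

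Sex was not part of how the genes were chosen. Asns was higher in males, with 7.37 to 8.06 and a median of 7.80 in 5 males, against 6.55 to 7.42 and a median of 7.07 in 12 females. The fitted difference of males minus females, with the dose group as a term, was 0.60 ± 0.13 (SE, limma adjusted p = 0.042 over all genes), and 5 of 5 males lay above the female mean. It was the 1 gene of the 10 that passed, where 0.958% of all genes passed (0.703% higher, 0.255% lower); the sexes overlapped for all 10 genes, and did not for 0.269% of all genes. The call was lost without any of control replicates 1, 2, 6 and 7, replicate 2 at 30 mg/kg or replicates 5 to 10 at 20 mg/kg, and the adjusted p was 0.14 with the number range as a term and 0.10 within numbers 5 to 10 (0.49 and 0.54 log2 higher).

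The other genes did not pass for sex. Atf4 was 0.53 ± 0.17 higher in males than in females (adjusted p = 0.13) and Aldh18a1 0.36 ± 0.11 (adjusted p = 0.10), with 5 of 5 males above the female mean for Aldh18a1. Shmt2 had a difference of 0.43 ± 0.17 (adjusted p = 0.21) and Phgdh of -0.26 ± 0.10 (adjusted p = 0.19). The other 5 genes had limma adjusted p between 0.35 and 0.81. In a fit with a product term of treatment at either dose and sex, which was added after the data were seen, 0 of the 10 genes passed (lowest unadjusted p = 0.13, lowest limma adjusted p = 0.76), and 1 gene passed over the whole table.

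The likeness of the patterns was described with dose group and sex taken out. The number range was not taken out, so the gap between controls 5 to 7 and controls 1 to 4 can enter these values. That gap was without overlap for Ddit3 and Asns. Over the 17 arrays, which share 1 normalization, Atf4 was most like Mthfd2 among the other members (Pearson r = 0.61), followed by Ddit3 (0.46). Its r was 0.28 with Asns, 0.18 with Pycr1 and -0.40 with Phgdh. Ddit3 had r = 0.29 with Asns, and Shmt2 and Aldh18a1 had r = 0.60 with each other. Outside the members, the genes most like Atf4 were Ell2 (0.89), Tent5a (0.85) and Apobec2 (0.84), those most like Ddit3 were Rtf1 (0.91), Fmr1 (0.89) and Safb (0.89), and those most like Asns were Tmem199, Rras2 and Klhl20 (each 0.79). These are the highest of 14496 values for each of the 3 genes and carry no test.

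The rest of the pathway was followed in 6 lists with 89 measured genes: regulators and targets of the ATF4 stress response, eIF2 kinases and their partners, amino acid transporters, other serine, glycine and one-carbon genes, other proline, glutamate, arginine and transaminase genes, and cytosolic aminoacyl-tRNA synthetases. At 30 mg/kg 5 of the 89 were higher and 2 lower, a share of 7.87% beside 8.55% of all genes. The 20 mg/kg libraries had 1 higher and 0 lower (1.12%, beside 1.18% of all genes). Of the 7 calls at 30 mg/kg, that of Bcat2 alone held in females. At the adjusted threshold these shares of 7.87% and 1.12% are near those of the whole table. At an unadjusted p under 0.05 there were 31 of the 89 at 30 mg/kg and 23 at 20 mg/kg. Both are larger shares than those of all genes at that threshold, a difference that was not tested. Over all 14506 genes there were 3453 at 30 mg/kg and 2522 at 20 mg/kg, beside which the unadjusted counts below are to be set.

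Amino acid transporters had the highest list median at 30 mg/kg, 0.40 on the log2 scale over 12 genes, with 2 higher and 0 lower. Slc3a2, the heavy chain of several amino acid exchangers, averaged 9.89 ± 0.32 (SD, n = 4) at 30 mg/kg and 9.11 ± 0.19 (n = 7) in controls, without overlap, and rose by 0.79 ± 0.14 (SE, limma adjusted p = 0.0031). Its call held when any 1 library was left out and with the number range as a term (adjusted p = 0.030), and it was lost in females (0.064). Slc38a2, a sodium-coupled transporter of neutral amino acids, averaged 10.18 ± 0.35 at 30 mg/kg and 9.51 ± 0.33 in controls (SD) and rose by 0.68 ± 0.19 (SE, limma adjusted p = 0.034), a call lost without control replicates 3, 5, 6 or 7 or replicates 2, 3 or 4 at 30 mg/kg. With the number range as a term Slc38a2 was 0.36 higher (adjusted p = 0.24), and the call was lost without the sex term. The median at 20 mg/kg was 0.15 with 0 of 12 called (2 at an unadjusted p under 0.05), and the gene with the smallest p was Slc6a9, a glycine transporter, at -0.36 ± 0.12 (limma adjusted p = 0.13).

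Among 17 ATF4 and stress response regulators, 1 was higher and 1 lower at 30 mg/kg, with a median of 0.07. Ppp1r15a, which encodes GADD34, the subunit that directs dephosphorylation of eIF2, averaged 7.45 ± 0.98 (SD, n = 4) at 30 mg/kg and 6.25 ± 0.26 (n = 7) in controls and rose by 1.21 ± 0.30 (SE, limma adjusted p = 0.019). Its call was lost without replicate 3 or 4 at 30 mg/kg (highest adjusted p = 0.12) and was 1.12 log2 higher with the number range as a term (adjusted p = 0.093). The 20 mg/kg mean of Ppp1r15a was 7.05 ± 0.41 (SD, n = 6), 0.78 ± 0.27 above control (SE, limma adjusted p = 0.14), without overlap. Ddit4, the gene of REDD1, an inhibitor of mTOR signalling, averaged 5.96 ± 0.59 at 30 mg/kg and 6.76 ± 0.44 in controls (SD) and fell by 0.81 on the log2 scale (limma adjusted p = 0.042), a call lost in 11 of the 17 fits without 1 library: control replicates 2 to 5, replicates 1, 3 and 4 at 30 mg/kg and replicates 6 to 9 at 20 mg/kg. The Ddit4 call was also lost with array weights, after quantile normalization and with the number range as a term. In this list 0 of 17 passed at 20 mg/kg (5 at an unadjusted p under 0.05), where the median was 0.20.

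Among 10 genes of the eIF2 kinase list, each dose had 1 call, with a different gene. Gcn1, an activator of the eIF2 kinase GCN2, averaged 6.87 ± 0.10 (SD, n = 4) at 30 mg/kg and 6.41 ± 0.21 (n = 7) in controls, without overlap, and rose by 0.47 ± 0.10 (SE, limma adjusted p = 0.0089), a call that held without any 1 library. Impact, an inhibitor of the same kinase, averaged 8.61 ± 0.26 (SD, n = 6) at 20 mg/kg and 7.72 ± 0.41 (n = 7) in controls, without overlap, and rose by 0.86 ± 0.16 (SE, limma adjusted p = 0.021), a call lost without replicate 7 or 8 at 20 mg/kg. Within numbers 5 to 10 Impact was 0.67 higher (limma adjusted p = 0.037), with the number range as a term 0.65 (adjusted p = 0.24), and in females 0.88 (adjusted p = 0.11). Between the doses Impact was 0.80 ± 0.19 lower at 30 mg/kg than at 20 mg/kg (limma adjusted p = 0.014), a comparison in which dose and number range cannot be told apart.

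The other serine, glycine and one-carbon genes had a median of -0.38 over 16 genes at 30 mg/kg, with 1 higher and 0 lower. The gene that rose was Mtr, methionine synthase, by 0.55 ± 0.16 (SE, limma adjusted p = 0.034), a call lost without control replicates 2, 3 or 4 or replicates 1, 2 or 4 at 30 mg/kg, and also with trended variance (adjusted p = 0.052), array weights (0.086) and median centring (0.055). The 20 mg/kg median was -0.10 with 0 of 16 called (5 at an unadjusted p under 0.05). Cth, cystathionine gamma-lyase, had the smallest p there, at -0.67 ± 0.17 (limma adjusted p = 0.055).

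The list of other proline, glutamate, arginine and transaminase genes had a median of -0.16 over 15 genes at 30 mg/kg, with 0 higher and 1 lower. Bcat2, the mitochondrial branched-chain aminotransferase, averaged 5.67 ± 0.31 (SD, n = 4) at 30 mg/kg and 6.62 ± 0.38 (n = 7) in controls, without overlap, and fell by 0.98 on the log2 scale with an SE of 0.20 (limma adjusted p = 0.0075). Its call held without any 1 library, in females alone (adjusted p = 0.042) and with the number range as a term (adjusted p = 0.034). None of them passed at 20 mg/kg (0 of 15, and 3 at an unadjusted p under 0.05), and Gpt2, the mitochondrial alanine aminotransferase, had the smallest p, at -0.69 ± 0.17 (limma adjusted p = 0.054). Cytosolic aminoacyl-tRNA synthetases, which load amino acids onto tRNA, had 0 of 19 called at either dose. At an unadjusted p under 0.05 they had 5 of 19 at each dose, beside 2522 of all 14506 genes at 20 mg/kg and 3453 at 30 mg/kg. Their medians were 0.21 at 20 mg/kg and -0.02 at 30 mg/kg, and the genes with the smallest p were Rars1 at 20 mg/kg (0.44 ± 0.13, limma adjusted p = 0.098) and Farsa at 30 mg/kg (0.50 ± 0.16, adjusted p = 0.061). Within numbers 1 to 4, where 16 genes of the whole table passed (0.11%), 0 of the 89 listed genes passed at 30 mg/kg. At an unadjusted p under 0.05 there were 12 of the 89, beside 1377 of all 14506 genes.

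**Figure D4:**
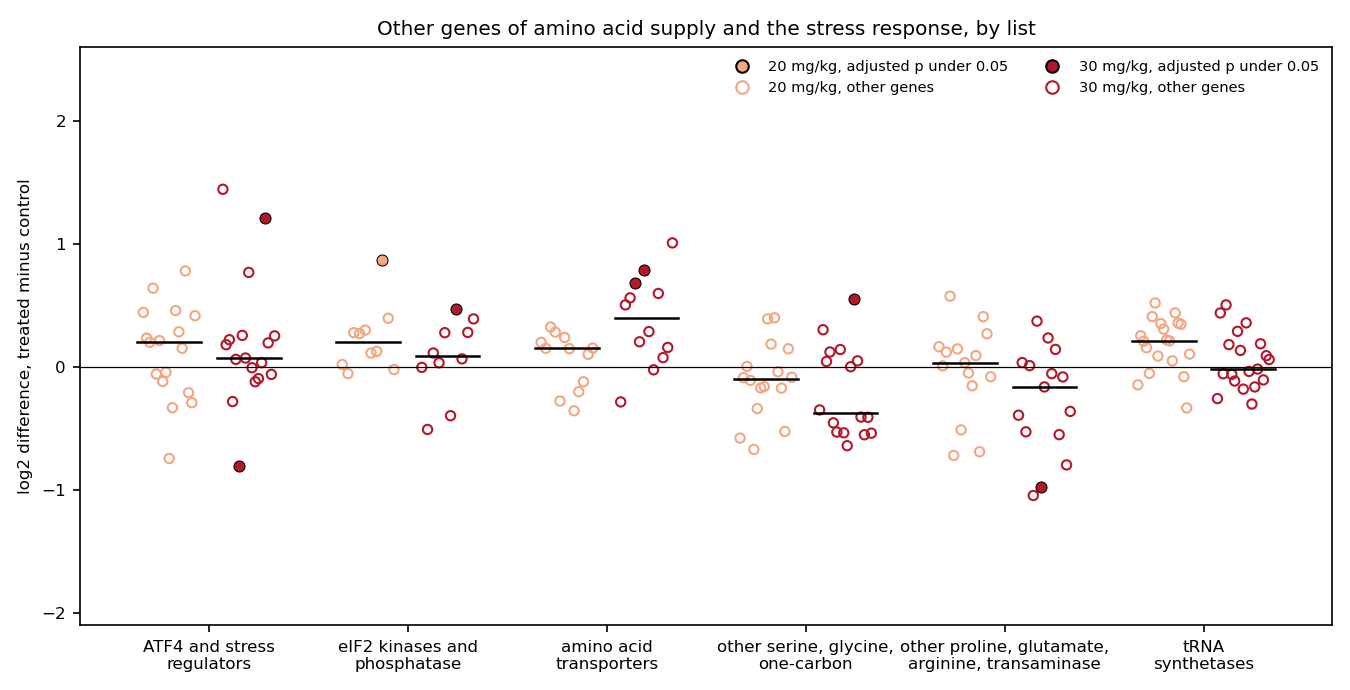
Log2 differences from control of the 89 listed genes at 20 and 30 mg/kg, with filled points for genes at a limma adjusted p under 0.05 and black lines for list medians. The filled points are 1 at 20 mg/kg (Impact) and 7 at 30 mg/kg, and the highest median is that of amino acid transporters at 30 mg/kg (0.40).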

How the data were processed

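The deposited values are log2 expression per probe set, made by the authors with RMA and Affymetrix Expression Console 1.3.0.187, per the submitters' processing notes; RMA corrects background and normalizes between arrays. They ranged from 2.22 to 13.71 over 29214 probe sets and 17 arrays and were used as deposited. The probe annotation gave 1 symbol for 15310 probe sets, several for 323 and none for 13581. The number of samples, 4 to 7 per group, limits the precision. The labels do not say that samples came from separate animals, so the p-values reflect how far these samples vary, which may be technical.

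Genes were fitted with limma 3.58.1 in R 4.3.3 (lmFit, eBayes, two-sided) with 3 dose groups and sex over all 17 samples, and p-values were adjusted by Benjamini-Hochberg over 14506 genes (threshold 0.05). The fit was tested on simulated data. The number-range fits used title numbers 1 to 4 or 5 to 10; in numbers 1 to 4 the single male is absorbed by the sex term. Named genes were all members, up to 3 called genes per list and dose (or the 1 with the smallest p), and the 3 genes most like Atf4, Ddit3 and Asns. Members and lists were chosen with earlier results of these data known. Alternatives are given in the closing section.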

Additional observations from a re-analysis of the deposited data

Results flagged for a closer look

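In 30 groups (10 genes at 3 doses), 3 held a library set apart from the rest of its group by Dixon's gap test, which flags about 1 in 20 groups by chance. Atf4 was 11.62 in replicate 10 at 20 mg/kg, a male, against 10.78 for the next library. Phgdh was 5.62 in replicate 2 at 30 mg/kg, against 5.36 for the next. Aldh18a1 was 5.66 in replicate 4 at 30 mg/kg, the only male of that group, against 5.45 for the next.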

How the results depend on the processing

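The median differences of the 10 genes moved by less than the spread of single genes between replicates under every setting run. That is a wide measure for a median over 10 genes. Their range without 1 library was 0.004 to 0.08 at 20 mg/kg, -0.20 to -0.03 at 30 mg/kg, -0.12 to -0.03 between the doses and 0.20 to 0.29 for sex. Over the other settings it was 0.009 to 0.138 at 20 mg/kg, -0.199 to -0.073 at 30 mg/kg, -0.215 to 0.001 between the doses and 0.11 to 0.301 for sex. Counts over all genes moved more. At 20 mg/kg 171 genes passed, but 55 without the sex term, 2 in females, 577 with array weights, 103 after quantile normalization, 268 after median centring, 12 at an adjusted p under 0.01 and 52 with the number range as a term; the share higher was 55.6%, 36.9% after quantile normalization, 72.8% after centring, 5.8% with the number range and 17.9% in numbers 5 to 10. At 30 mg/kg 1240 passed, but 251 in females, 383 at 0.01, 437 with the number range and 16 in numbers 1 to 4. Between the doses 1752 passed (32.5% higher, 44.2% after quantile normalization, 20.3% after centring), but 405 in females, 302 at 0.01 and 0 with the number range (971 at an unadjusted p under 0.05). For sex 139 passed (73.4% higher, 56.0% after quantile normalization, 90.0% after centring), but 543 with array weights, 311 after centring, 0 at 0.01, 38 with the number range and 289 in numbers 5 to 10. Without 1 library the counts ran from 22 to 470 at 20 mg/kg, 456 to 1563 at 30 mg/kg, 321 to 2172 between doses and 0 to 231 for sex, lowest without replicate 7 at 20 mg/kg, replicate 4 at 30 mg/kg, the same library, and control replicate 6 (1724 at an unadjusted p under 0.05). Of the 89 listed genes, 7 passed at 30 mg/kg, but 2 in females, 3 at 0.01 and 0 in numbers 1 to 4 (4 to 11 without 1 library). At 20 mg/kg 1 passed, but 0 in females, 2 with trended variance, 3 with array weights, 2 above the 25th percentile, 0 at 0.01 and 0 with the number range (0 to 4 without 1 library). The causes were not tested. With dose group and sex taken out, deviations of same-numbered libraries correlated at -0.27 to 0.25, and 1 of 7 controls correlated best with its own number. The number range was not taken out and differs among the controls, so these values cannot decide whether the replicate numbers pair the samples. With the replicate number as a block the counts were 0 at 20 mg/kg, 72 at 30 mg/kg, 0 between doses and 0 for sex. At an unadjusted p under 0.05 they were 805, 1970, 588 and 1228. Of the listed genes 0 passed at 20 mg/kg and 1 at 30 mg/kg. Several fitted differences changed sign with the block. For sex, Ddit3, Psat1, Psph and Pycr1 turned to -0.274, -0.063, 0.023 and 0.033. At 20 mg/kg Slc6a9 turned to 0.004, Asns to -0.093 (0.343 without the block), Shmt2 to 0.468 (-0.227) and Aldh18a1 to 0.086 (-0.022). Between doses Ddit3 turned to 0.26, Asns to 0.274 (-0.355 without the block), Shmt2 to -0.848 (0.091) and Atf4 to -0.177 (0.094). Asns at 30 mg/kg turned from -0.011 to 0.181. The Asns difference by sex had an adjusted p of 0.053 with trended variance, 0.057 after quantile normalization and 0.76 with the block.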
